A study of Caenorhabditis elegans with 24 samples.

Results

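The respiratory chain and the ATP synthase were followed through 56 genes, which encode subunits and assembly factors from both genomes of the worm. The set held 44 listed nuclear genes, in 14 of complex I, 4 of complex II, 6 of complex III, 7 of complex IV, 3 assembly factors of complex IV, 1 cytochrome c gene and 9 of the ATP synthase. It also held the 12 protein-coding genes of the mitochondrial genome (MtDNA). All 56 were found among the 46904 gene identifiers measured, and all 56 passed the filter on low counts. Their transcripts were measured in whole adult Caenorhabditis elegans of 2 strains: CF1041, which carries daf-2(e1370), a reduction-of-function allele of the insulin/IGF-1 receptor gene, and the wild type N2. Worms of each strain were taken on adult days 1, 4, 7 and 11, with 3 libraries for each of the 8 groups and 24 in all. Every group had been synchronised by bleaching, raised on OP50 bacteria and given FUDR, a blocker of DNA synthesis, from the last larval stage. The series asks how transcripts change during ageing in wild-type and daf-2 worms. The e1370 allele is a missense change, so the level of the daf-2 transcript was not used as a check of the genotype.

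Electrons enter the chain at complex I (NADH dehydrogenase) or complex II (succinate dehydrogenase), pass through ubiquinone to complex III, and travel on cytochrome c to complex IV (cytochrome c oxidase). The proton gradient that complexes I, III and IV build drives the ATP synthase. Complex II is encoded in the nucleus alone, whereas the other complexes are assembled from subunits made from both genomes. In C. elegans, reduced function of chain subunits such as ISP-1 or NUO-6 is known to lengthen life, and loss of MEV-1 is known to shorten it.

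Libraries held 20660999 to 32655703 expected counts, of which the 44 nuclear genes took 0.541% to 0.963% and the 12 MtDNA genes took 0.304% to 1.88%. Levels are given as counts scaled to a library of 1000000 (CPM). Changes are log2 fold changes with a standard error (SE) from edgeR's quasi-likelihood test over 16698 genes, and "rose" and "fell" mean a Benjamini-Hochberg adjusted p under 0.05. Nothing in the labels ties the libraries of a group to cultures of their own. The p-values therefore cover the spread among these libraries, which may be technical. In whole worms, fewer cells of a type and less RNA per cell cannot be told apart.

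Libraries numbered 3 stood apart from those numbered 1 and 2, though for the MtDNA genes not in every group. In daf-2 worms at day 4 the summed MtDNA level was 6017 CPM in library 3, between the 7786 and 5684.5 of libraries 1 and 2. Averaged over the 8 groups, the 38 autosomal nuclear genes were lower in library 3 than in the mean of libraries 1 and 2, by a median log2 difference of -0.40, and 31 of them were lowest in library 3 in every group. The 6 X-linked nuclear genes had a median difference of 0.04, and the 12 MtDNA genes had one of 0.63, with all 12 above 0. Summed germline markers (-0.63), oocyte and eggshell markers (-0.67), body wall muscle markers (-0.70) and pharyngeal muscle markers (-1.097) were lower in library 3 as well. Intestine markers differed by -0.37, whereas hypodermis (0.12), neuron (0.02) and sperm markers (0.03) differed little. The part of these features in the results was not tested, and MtDNA results are given with and without these libraries. Libraries with the same number deviated together in each daf-2 age comparison, in N2 at day 11 against day 1 and between strains at each day. For the chain's genes, fits with the number as a block are given there where they change a call.

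The mitochondrial genes lie in a row on the plus strand of MtDNA (WBcel235). ND6 (ending at position 549), ND4L (549 to 783), ND1 (1763 to 2635), ATP6 (2634 to 3235), ND2 (3389 to 4269) and CYTB (4504 to 5621) come first. COX3 (5678 to 6449), ND4 (6506 to 7808), COX1 (7827 to 9428), COX2 (9649 to 10348), ND3 (11356 to 11691) and ND5 (11691 to 13272) follow. The ND genes encode membrane subunits of complex I, CYTB the cytochrome b of complex III, COX1 to COX3 the catalytic core of complex IV, and ATP6 the proton-channel a subunit of the ATP synthase. ND6 and ND4L share 1 base, ND1 and ATP6 share 2, and ND3 and ND5 share 1, so reads across these ends could be assigned to either gene.

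Steady-state levels of these neighbours differed widely. Per kb of gene, COX1 averaged 2281 CPM over all libraries, COX3 1209, CYTB 897, COX2 645, ND1 485, ND5 477, ATP6 286 and ND4 203. ND3 (16.2 CPM per kb), ND6 (14.6), ND2 (4.70) and ND4L (1.19) were far lower, and ND4L had only 1 to 16 counts in any library. COX1 alone supplied 47.6% of the MtDNA protein-coding CPM. The nuclear genes ran from 8.43 CPM per kb for cox-10, which makes heme O for complex IV, to 598 for cyc-2.1, the cytochrome c gene, with a median of 142.1. Nuclear members of complex IV had a median of 254 CPM per kb and those of the ATP synthase 236, above complex I (126), complex III (121), complex II (57.2) and the complex IV assembly factors (26.4).

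In N2, mitochondrial mRNAs were lower at later ages than at day 1. At day 11, 10 of 12 MtDNA genes fell, against 19.2% of all genes tested, with a median log2 fold change of -1.48 where that of all genes was 0.10. At day 7, 6 of 12 fell (13.1% of all genes, median -1.29), and at day 4, 1 of 12 fell (6.07% of all genes, median -0.95). All 12 lay below 0 at each of these ages. With the libraries numbered 3 left out, 8 genes fell at day 4, 10 at day 7 and 11 at day 11, beside 10.6%, 18.7% and 26.4% of all genes. With N2 day 1 library 3 left out, 3 fell at day 7, as also without N2 day 7 library 1 or library 2, and 6 fell at day 11 without N2 day 11 library 2.

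COX1, the most abundant of them, had 7133, 5298 and 8894 CPM in N2 at day 1, 3139, 2285 and 5611 at day 4, 2386, 2261 and 2618 at day 7, and 1894, 1373 and 3006 at day 11. Each of the 3 day 11 libraries lay below each day 1 library, and the change was -1.77 ± 0.40 (SE, n = 3 libraries a group; edgeR adjusted p = 0.00142). CYTB had 537, 352 and 786 CPM at day 11, against 2038, 1332 and 2242 at day 1. Its groups did not overlap, and it fell by 1.74 ± 0.42 on the log2 scale (edgeR adjusted p = 0.00216). ND5, the complex I subunit at the end of the row, had 472, 407 and 695 CPM in N2 at day 11, against 1664, 1018 and 2175 at day 1. The groups did not overlap, and the change was -1.63 ± 0.33 (edgeR adjusted p = 0.000602).

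ND5 was also the only MtDNA gene past the threshold in N2 at day 4, with 708, 575 and 1027 CPM, and a change of -1.07 ± 0.33 (edgeR adjusted p = 0.0441). That call ended without N2 day 1 library 1 or 3 or N2 day 4 library 1 or 2. At day 7 COX1 (-1.55), CYTB (-1.60), ND5 (-1.31), COX2 (-1.86), COX3 (-1.28) and ND1 (-0.91) fell, and the first 3 calls held without any single library.

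The remaining mitochondrial genes of N2 followed with smaller levels or wider spread. ND1 had 262, 243 and 355 CPM at day 11, against 582, 435 and 743 at day 1, and fell by 1.03 ± 0.28 (edgeR adjusted p = 0.00507). ND3 fell by 1.55 ± 0.34, with 2.93, 2.05 and 4.16 CPM at day 11, against 10.9, 6.70 and 9.33 at day 1. ND2 fell by 1.49 ± 0.38, with 1.58, 2.47 and 2.38 CPM at day 11, against 6.42, 4.09 and 7.54 at day 1. None of these sets overlapped, and these calls held when any single library was left out.

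COX2 fell by 1.95 ± 0.62 at day 11, COX3 by 1.34 ± 0.44, ND4 by 1.29 ± 0.49 and ND6 by 1.18 ± 0.35, but these 4 calls ended without N2 day 11 library 2. The calls of COX2, COX3 and ND4 also ended when library 1 of that group was left out. Those of COX3 and ND4 ended without library 3 of N2 at day 1, and that of ND4 without library 1 at that age. COX2 had 196, 114 and 360.2 CPM in N2 at day 11, against 924, 689.5 and 974 at day 1, which did not overlap. ATP6 had 101, 43.3 and 193 CPM at day 11, against 420.4, 226 and 288 at day 1, also without overlap. Its change of -1.47 ± 0.83 missed the threshold (edgeR adjusted p = 0.163, or 0.0448 with the number as a block, where 26.4% of all genes fell). ND4L, near the counting floor, had a change of -0.48 ± 0.59 (edgeR adjusted p = 0.537).

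In daf-2 worms few mitochondrial genes passed the test. At day 11, 1 of 12 fell (ND3), against 18% of all genes, and the median was -0.63. At day 7 and at day 4, 0 of 12 passed by edgeR, against 12.7% and 5.01% of all genes, with medians of -0.75 and -0.74. Unadjusted p lay under 0.05 for 4 genes at day 4, 4 at day 7 and 3 at day 11, and DESeq2 called 2, 3 and 3. With the number as a block, 4, 6 and 6 genes fell, beside 11.9%, 20.9% and 26% of all genes. Without daf-2 day 1 library 2, 4 fell at day 7 and 4 at day 11, without day 1 library 1 it was 2 and 2, and without day 11 library 3 it was 3 at day 11.

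These medians rested on the day 1 group, in which library 3 lay far above the other libraries. COX1 had 3928, 2758 and 8936 CPM in daf-2 worms at day 1, 3808, 2846 and 2935 at day 4, 3085, 1923 and 3170.5 at day 7, and 2184, 2335 and 3888 at day 11. Library 3 at day 11 lay above the lowest day 1 library, while the other two day 11 libraries lay below all of day 1, and the change was -0.89 ± 0.39 (edgeR adjusted p = 0.0735, or 0.00749 with the block). ATP6 had 126, 177 and 490.1 CPM in daf-2 worms at day 11, against 75.2, 26.5 and 382 at day 1, a change of 0.71 ± 0.82 (edgeR adjusted p = 0.51). ND3 had 3.98, 3.62 and 5.86 CPM at day 11, against 5.76, 6.60 and 12.9 at day 1. These overlapped slightly, and the fall of 0.91 ± 0.34 (edgeR adjusted p = 0.0362) lost its call without daf-2 day 1 library 3 or daf-2 day 11 library 1 or 2.

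Without daf-2 day 1 library 3, 0 genes fell at day 11 and 5 of 12 lay below 0, with a median of 0.07. That fit kept library 3 at day 11, so the ages were unbalanced for a number that was mostly higher in MtDNA genes. In that fit ATP6 rose by 2.37 ± 0.86 (edgeR adjusted p = 0.0334), beside 23.6% of all genes that rose. With all libraries numbered 3 left out, 1, 1 and 2 genes fell at days 4, 7 and 11, beside 7.37%, 18.5% and 25.8% of all genes, and the medians were 0.01, -0.22 and -0.23. At day 11, 9 of 12 then lay below 0.

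Nuclear genes of the chain fell with age in both strains, and 0 of 44 rose at any age, where 4.21%, 15.1% and 22.2% of all genes rose in daf-2 worms and 3.01%, 12.8% and 22.5% in N2 at days 4, 7 and 11. In daf-2 worms 8 of 44 fell at day 4, 22 at day 7 and 24 at day 11, with medians of -0.39, -0.50 and -0.53. In N2 it was 7 at day 4, 24 at day 7 and 27 at day 11, with medians of -0.40, -0.44 and -0.57. The shares of all genes that fell were those given with the MtDNA counts of each strain and age. With the libraries numbered 3 left out, 27, 33 and 36 nuclear genes fell in daf-2 worms at days 4, 7 and 11, and 33, 33 and 36 in N2. A fit of only the 2 groups compared gave 1, 9 and 15 in daf-2 worms, beside 2.62%, 7.05% and 12.9% of all genes, and 2 at day 4 and 6 at day 7 in N2, beside 3.55% and 6.66%. With the number as a block, 34 nuclear genes fell in daf-2 worms at day 4 and 38 at day 7. At day 7, 11 fell in daf-2 worms without day 1 library 2 or day 7 library 3 and 13 without day 1 library 1, and at day 11, 15 fell without day 11 library 3. At day 4 the daf-2 count was 5 without day 1 library 2 or day 4 library 1, and the N2 count was 12 without day 1 library 3. In N2 at day 7, 11 fell without day 1 library 1 or day 7 library 3 and 14 without day 1 library 2.

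Scaling by library size alone moved the median of all genes up by 0.09 to 0.23, depending on strain and age. Nuclear medians were then between -0.26 and -0.41, with 36 to 43 of 44 genes below 0.

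**Figure D1:**
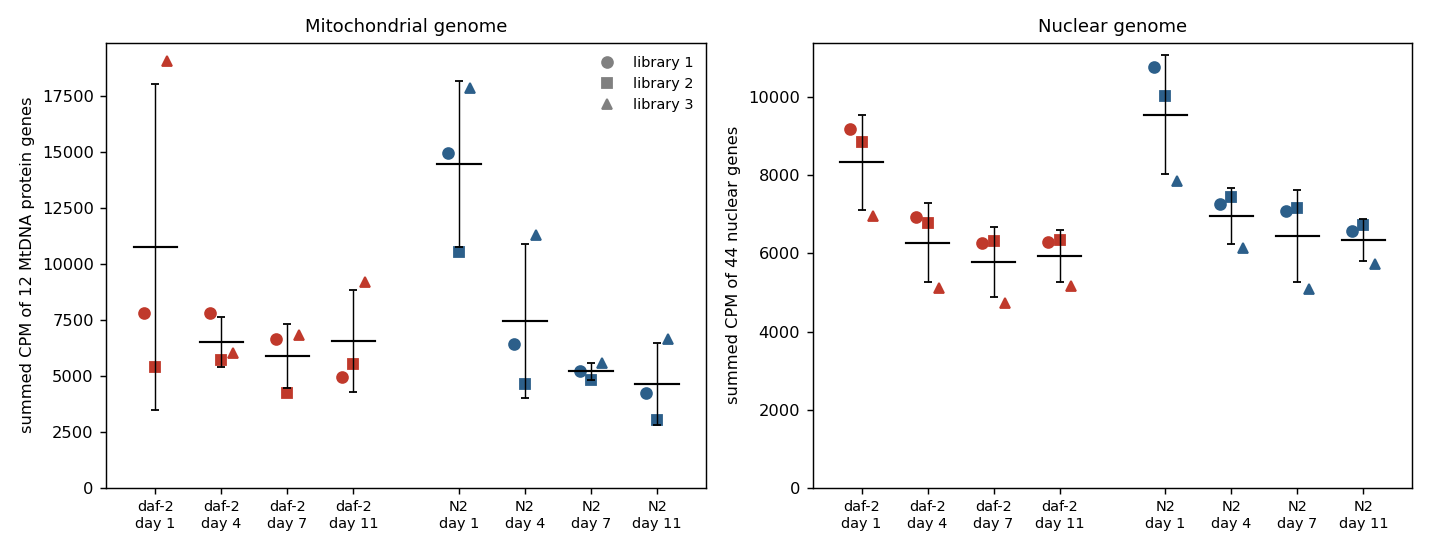
Summed CPM of the 12 MtDNA protein-coding genes and of the 44 nuclear genes, by strain and day of adulthood, on a linear axis from 0, with 1 point per library, a line at the group mean and bars of 1 SD. In N2 the MtDNA sum was 10500 to 17844 CPM at day 1 and 3012 to 6618 at day 11, while daf-2 day 1 library 3 reached 19044.

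Complex I, which had the most nuclear members, carried the most calls by number. Counts by complex are from the fit without the block. The block raised the nuclear counts, and its counts by complex are not given here. In daf-2 worms 5, 11 and 12 of its 14 nuclear members fell at days 4, 7 and 11, and in N2 3, 11 and 11 did. The complex I member nuo-6 (NDUFB4 in human) had 126, 131 and 169.9 CPM in daf-2 worms at day 1, 89.9, 94.3 and 82.3 at day 4, 71.8, 76.6 and 68.9 at day 7, and 64.5, 68.3 and 68.4 at day 11. In N2 nuo-6 had 166, 151 and 160.2 CPM at day 1, 101, 102 and 110.3 at day 4, 85.8, 80.9 and 81.8 at day 7, and 68.2, 73.3 and 64.3 at day 11. The 4 ages of N2 did not overlap, and nuo-6 fell by day 11 by 1.09 ± 0.12 in daf-2 worms and by 1.21 ± 0.12 in N2 (edgeR adjusted p = 1.09e-06 and 2.29e-07).

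A second complex I gene, nduf-5 (NDUFS5 in human), had 42.1, 42.8 and 39.5 CPM in daf-2 worms at day 11, against 86.5, 91.9 and 114 at day 1. In N2 it had 43.9, 48.5 and 45.1 CPM at day 11, against 101, 93.9 and 111 at day 1. No libraries overlapped between these ages in either strain, and its change was -1.24 ± 0.14 in daf-2 worms and -1.15 ± 0.13 in N2 (edgeR adjusted p = 7.32e-07 and 1.23e-06).

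Complex II, whose subunits all come from the nucleus, had 0 of 4 genes past the threshold at any age in either strain by edgeR. Unadjusted p lay under 0.05 for 1 of the 4 in N2 at day 4 and 1 at day 7, and for 0 elsewhere, and DESeq2 called 1 in N2 at day 7 and 0 elsewhere. At day 11 its median was -0.11 in daf-2 worms and 0.03 in N2. The iron-sulfur subunit sdhb-1 had 136, 135 and 105 CPM in daf-2 worms at day 11, against 144, 139 and 96.4 at day 1. In N2 sdhb-1 had 144, 148 and 116 CPM at day 11, against 155, 142.4 and 104 at day 1, so the ages overlapped in both strains. The membrane anchor gene mev-1 changed by -0.25 ± 0.23 in daf-2 worms and by -0.20 ± 0.23 in N2 (edgeR adjusted p = 0.407 and 0.501).

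In complex III, 1, 1 and 1 of 6 genes fell in daf-2 worms at days 4, 7 and 11, and 2, 4 and 3 did in N2. The Rieske iron-sulfur protein gene isp-1 had 185, 181 and 151.5 CPM in daf-2 worms at day 11, against 227, 210.2 and 157 at day 1. In N2 it had 190.1, 186 and 173 CPM at day 11, against 265, 229.8 and 181 at day 1. Both pairs overlapped, and the changes were -0.20 ± 0.19 in daf-2 worms and -0.30 ± 0.19 in N2 (edgeR adjusted p = 0.415 and 0.209, the second 0.0124 with the block). The cytochrome c1 gene cyc-1 changed by -0.32 ± 0.23 in daf-2 worms and -0.41 ± 0.23 in N2, and passed only with the block (edgeR adjusted p = 0.0156 and 0.00314). The cytochrome c gene cyc-2.1 had 349, 434 and 304 CPM in daf-2 worms at day 11, against 345, 369 and 306 at day 1. In N2 it had 344, 371 and 302 CPM at day 11, against 425, 411 and 323 at day 1, and it did not pass in either strain (edgeR adjusted p = 0.715 and 0.418).

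Of the 7 nuclear complex IV genes, 0, 3 and 5 fell in daf-2 worms at days 4, 7 and 11, and 0, 2 and 5 did in N2. At day 4, unadjusted p lay under 0.05 for 3 of them in daf-2 worms and 5 in N2, and DESeq2 called 2 and 0. The subunit gene cox-4 fell in both strains at day 11, in N2 by 0.86 ± 0.22 (edgeR adjusted p = 0.00328). Its call in daf-2 worms ended when either of 2 libraries was left out (edgeR adjusted p = 0.0748 and 0.0832). At the same age cox-6B fell by 0.82 ± 0.17 in daf-2 worms and by 0.78 ± 0.17 in N2 (edgeR adjusted p = 0.000703 and 0.00104). Cox-6B had 138, 126 and 114 CPM in daf-2 worms at day 11, against 233, 234 and 201 at day 1. In N2 cox-6B had 135, 133 and 127 CPM at day 11, against 251, 233 and 191 at day 1, again without overlap.

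The copper chaperone gene cox-11, needed to build complex IV, had 19.5, 20.4 and 16.8 CPM in daf-2 worms at day 11, against 38.2, 38.8 and 27.6 at day 1. In N2 it had 17.2, 17.2 and 14.5 CPM at day 11, against 47.1, 43.2 and 25.3 at day 1. Neither strain's ages overlapped, and cox-11 fell by 0.88 ± 0.21 in daf-2 worms and by 1.24 ± 0.21 in N2 (edgeR adjusted p = 0.00209 and 8.21e-05).

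Nuclear ATP synthase genes numbered 9, of which 2, 5 and 5 fell in daf-2 worms at days 4, 7 and 11, and 2, 5 and 6 in N2. The catalytic beta subunit gene atp-2 fell to 734, 745 and 538 CPM in daf-2 worms at day 11, against 1290.1, 1119.7 and 807 at day 1. In N2 it fell to 766, 805 and 592 CPM, against 1506, 1376 and 1008 at day 1. No ages overlapped in either strain, and the changes were -0.67 ± 0.24 in daf-2 worms and -0.85 ± 0.24 in N2 (edgeR adjusted p = 0.0297 and 0.00764). The daf-2 call ended without day 1 library 1 or 2 or day 11 library 3. By contrast atp-3, the gene of the stalk subunit OSCP, had 416, 422 and 325 CPM in daf-2 worms at day 11, against 407, 384 and 288 at day 1. In N2 atp-3 had 422, 429.7 and 354 CPM at day 11, against 453, 410.5 and 329 at day 1. These overlapped, with changes of 0.11 ± 0.22 in daf-2 worms and 0.01 ± 0.22 in N2 (edgeR adjusted p = 0.72 and 0.968).

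**Figure D2:**
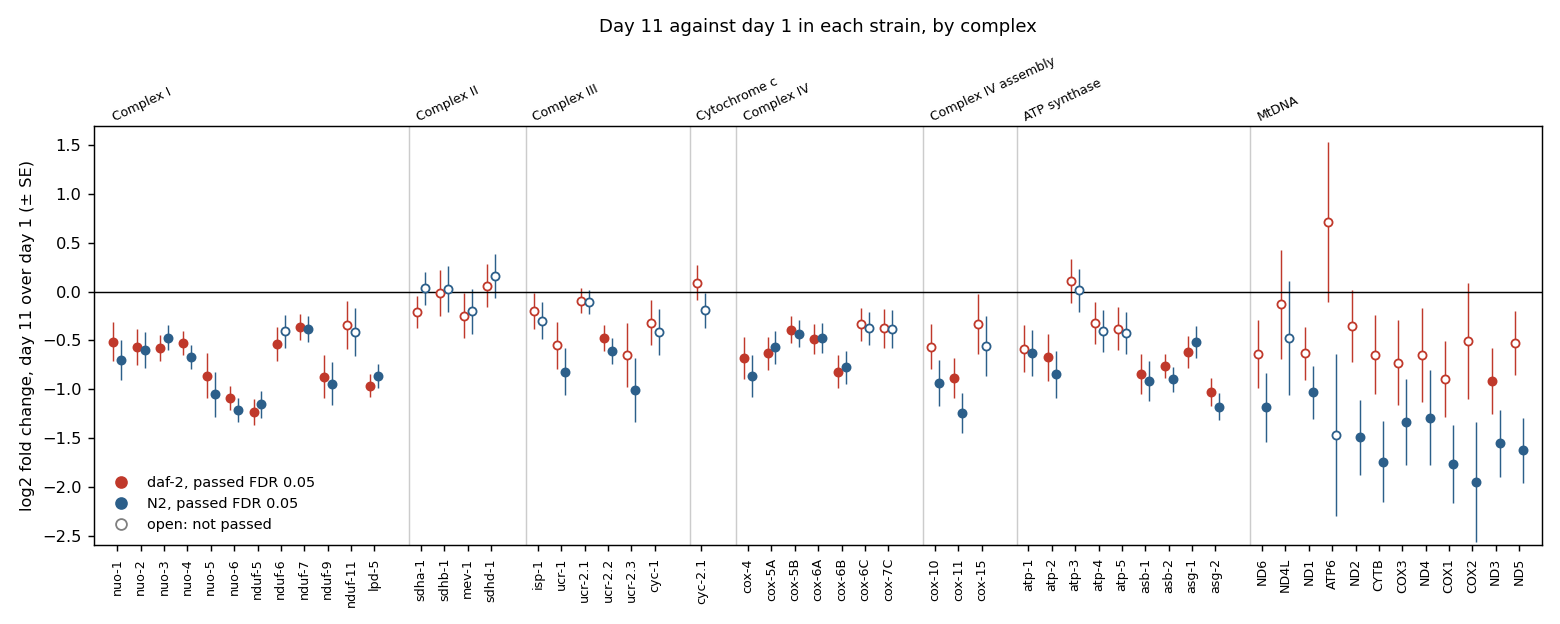
Log2 fold change at day 11 versus day 1 for 54 of the 56 genes, grouped by complex and genome, with daf-2 (red) and N2 (blue) side by side, bars of 1 SE and filled points for genes with an adjusted p under 0.05. Complex II and cytochrome c hold no filled point, whereas 10 of 12 MtDNA genes are filled in N2 and 1 of 12 in daf-2 worms.

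Some subunits in this set have an autosomal gene and an X-linked counterpart, and 3 such cases are described. The 6 X-linked nuclear members include sdha-1, ucr-2.1, ucr-2.2, asb-2 and asg-2. At day 4, 3 of 6 X-linked and 5 of 38 autosomal genes fell in daf-2 worms, and 4 of 6 and 3 of 38 in N2. All genes fell there at shares of 5.01% and 6.07%. This contrast was absent with the number as a block. Then 4 of 6 and 30 of 38 fell in daf-2 worms, beside 11.9% of all genes. In N2, which narrowly missed the pairing threshold at day 4, it was 5 of 6 and 31 of 38. The blocked share of all genes for N2 at day 4 is not given here. By day 11, 3 of 6 X-linked and 21 of 38 autosomal genes fell in daf-2 worms, and 3 of 6 and 24 of 38 in N2. The shares of all genes were 18% and 19.2%. With the block, 3 of 6 X-linked and 31 of 38 autosomal genes fell in daf-2 worms, and 3 of 6 and 33 of 38 in N2. All genes then fell at 26% and 26.4%. Medians without the block at day 11 were -0.34 (X-linked) and -0.54 (autosomal) in daf-2 worms, and -0.36 and -0.57 in N2.

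The g subunit of the ATP synthase is made from asg-1 (chromosome I) and asg-2 (chromosome X, 6841258 to 6842121). The X-linked asg-2 had 77.9, 72.0 and 71.0 CPM in daf-2 worms at day 1, 40.7, 37.6 and 36.8 at day 4, 34.4, 36.8 and 32.6 at day 7, and 35.4, 38.6 and 34.1 at day 11. In N2 asg-2 had 92.9, 73.0 and 86.3 CPM at day 1, 41.4, 34.01 and 44.1 at day 4, 35.1, 36.4 and 36.8 at day 7, and 31.3, 44.9 and 35.4 at day 11. The drop was thus present by day 4, with -0.94 ± 0.14 in daf-2 worms and -1.08 ± 0.14 in N2 (edgeR adjusted p = 0.000212 and 5.5e-05), and day 11 overlapped with day 4.

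The autosomal asg-1 had 124, 115 and 106 CPM in daf-2 worms at day 11, against 171, 196 and 162 at day 1, and 137, 146 and 117 CPM in N2 at day 11, against 191, 208 and 173 at day 1. It fell by 0.62 ± 0.16 in daf-2 worms and by 0.51 ± 0.16 in N2 (edgeR adjusted p = 0.00528 and 0.0162), and the N2 call ended without day 1 library 2 or day 11 library 3. The ratio of asg-1 to asg-2 was 3.504, 2.97 and 3.10 in daf-2 worms at day 11, against 2.19, 2.73 and 2.28 at day 1. In N2 it was 4.36, 3.26 and 3.32 at day 11, against 2.06, 2.85 and 2.0 at day 1, so the ratios did not overlap between these ages in either strain.

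Core protein 2 of complex III has 3 gene copies, the autosomal ucr-2.3 (chromosome III, 879860 to 881458) and the X-linked ucr-2.1 (12018429 to 12021206) and ucr-2.2 (15173904 to 15178145). Ucr-2.3 had 96.7, 103 and 68.1 CPM in daf-2 worms at day 11, against 166, 165 and 90.1 at day 1, and 114, 101 and 68.9 CPM in N2, against 232, 222 and 116. It fell by 1.00 ± 0.33 in N2 (edgeR adjusted p = 0.0178), a call that ended without day 1 library 1 or 2 or day 11 library 3. Its change in daf-2 worms was -0.65 ± 0.32 (edgeR adjusted p = 0.115, or 6.02e-05 with the block). The ratio of ucr-2.3 to ucr-2.1 was 1.00, 1.04 and 0.723 in daf-2 worms at day 11, against 1.54, 1.74 and 0.847 at day 1. In N2 it was 1.102, 0.875 and 0.646 at day 11, against 1.91, 2.18 and 0.910 at day 1, so in both strains the ages overlapped only through library 3 of day 1. The ratio of ucr-2.3 to ucr-2.2 was 2.09, 2.18 and 1.48 in daf-2 worms at day 11, against 2.43, 2.62 and 1.42 at day 1. In N2 that ratio was 2.34, 1.98 and 1.36 at day 11, against 2.65, 3.19 and 1.60 at day 1, and the ages overlapped in both strains.

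Ucr-2.1 was lowest in the middle ages. It had 107, 94.7 and 106 CPM in daf-2 worms at day 1, 73.6, 74.2 and 88.99 at day 4, 83.1, 82.4 and 95.8 at day 7, and 96.7, 98.6 and 94.3 at day 11. In N2 ucr-2.1 had 122, 102 and 128 CPM at day 1, 81.2, 74.9 and 82.8 at day 4, 80.8, 91.4 and 93.8 at day 7, and 104, 115 and 107 at day 11. It fell at day 4 in N2 (-0.56 ± 0.12, edgeR adjusted p = 0.00681), its value in daf-2 worms was -0.38 ± 0.12 (edgeR adjusted p = 0.0591, or 0.00714 with the block), and day 11 did not differ past the threshold from day 1 in daf-2 worms or N2 (edgeR adjusted p = 0.585 and 0.507).

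Ucr-2.2 fell at day 4 by 0.60 ± 0.13 in daf-2 worms and 0.87 ± 0.13 in N2, and was still lower at day 11, by 0.48 ± 0.13 and 0.61 ± 0.13 (edgeR adjusted p = 0.00645 and 0.000891). For the b subunit of the ATP synthase, the germline form asb-1 (chromosome III) fell by 0.84 ± 0.20 in daf-2 worms and 0.91 ± 0.20 in N2 at day 11. The X-linked asb-2 fell by 0.76 ± 0.13 and 0.90 ± 0.13. Their ratio was 1.02, 0.901 and 0.827 in daf-2 worms at day 11, against 0.924, 1.12 and 0.866 at day 1, and 1.24, 0.989 and 0.856 in N2, against 0.986, 1.28 and 0.864, which overlapped. Related copies can share reads, and how ambiguous reads were divided between them is not given beyond the use of RSEM.

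**Figure D3:**
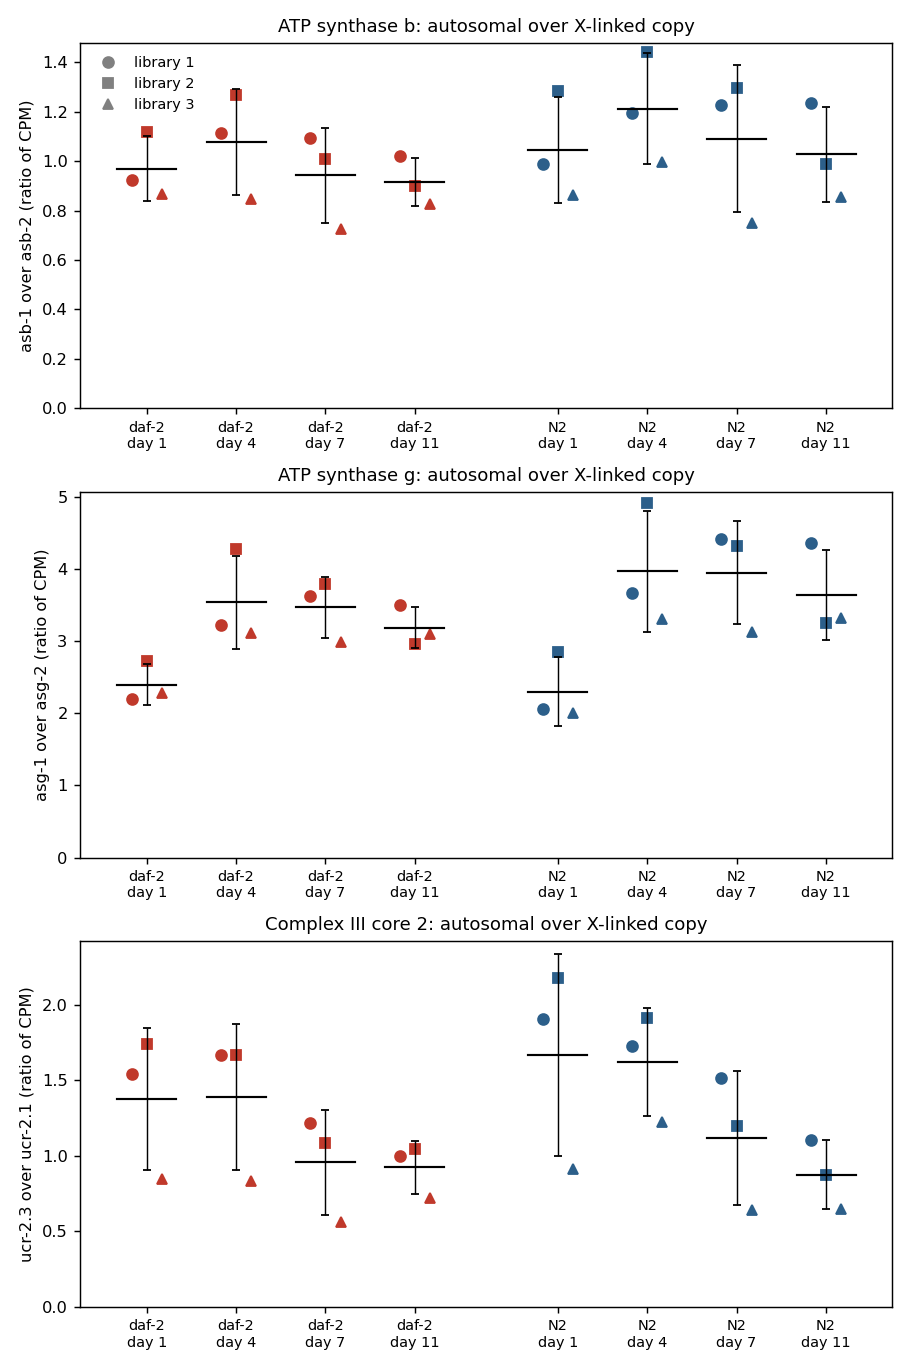
Ratio of the CPM of the autosomal copy to that of the X-linked copy for 3 subunits, by strain and day, with 1 point per library, a line at the group mean and bars of 1 SD, on a linear axis from 0. The asg-1 to asg-2 ratio was higher at day 11 than at day 1, and the ratios of ucr-2.3 to ucr-2.1 and of asb-1 to asb-2 overlapped.

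Set against each other, the 2 genomes differed in N2. The MtDNA sum was 4239.9, 3012 and 6618 CPM in N2 at day 11, against 14956, 10500 and 17844 at day 1. The nuclear sum was 6587, 6731 and 5736 CPM at day 11, against 10788, 10032 and 7854 at day 1. Neither overlapped between the ages, and the MtDNA to nuclear ratio was 0.644, 0.447 and 1.15 at day 11, against 1.39, 1.05 and 2.27 at day 1. The mean log2 ratio changed by -1.1035, beside a pooled SD of 0.677 within groups, and the same-numbered libraries gave -1.11, -1.23 and -0.98. The ratio values themselves overlapped through library 3 at day 11.

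For daf-2 worms the MtDNA sum was 4954, 5529.7 and 9170.4 CPM at day 11, against 7816, 5400.2 and 19044 at day 1. The nuclear sum was 6289.7, 6336 and 5174 CPM at day 11, against 9193, 8864 and 6949.6 at day 1, without overlap. The ratio was 0.788, 0.873 and 1.77 at day 11, against 0.850, 0.609 and 2.74 at day 1, so the ages overlapped. Its mean log2 change was -0.07, and the same-numbered libraries gave -0.11, 0.52 and -0.63. Without daf-2 day 1 library 3 the change was 0.57. The difference of the changes in the full ratio, daf-2 minus N2, was 1.03 on the log2 scale, and between 0.59 and 1.67 with single libraries left out. As a score over the chosen genes it was given no test.

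The 2 mitochondrial ribosomal RNAs gave a further comparison within the same genome, although the libraries had been depleted of ribosomal RNA and the part of that depletion in the ratio was not tested. The ratio of 12S and 16S rRNA to the 12 mRNAs was 4.92, 5.27 and 6.81 in daf-2 worms at day 1, 7.17, 8.21 and 7.54 at day 4, 7.70, 9.42 and 8.69 at day 7, and 7.48, 8.48 and 10.9 at day 11. In N2 it was 5.95, 6.06 and 6.71 at day 1, 7.21, 6.26 and 8.04 at day 4, 10.22, 10.4 and 11.3 at day 7, and 11.9, 13.7 and 13.96 at day 11. Days 7 and 11 lay above day 1 in every library of both strains, and N2 lay above daf-2 at day 11 without overlap. The rRNAs themselves did not pass at day 11: 12S changed by -0.11 ± 0.48 in daf-2 worms and -0.59 ± 0.48 in N2, and 16S by -0.06 ± 0.52 and -0.51 ± 0.52 (edgeR adjusted p between 0.333 and 0.933).

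**Figure D4:**
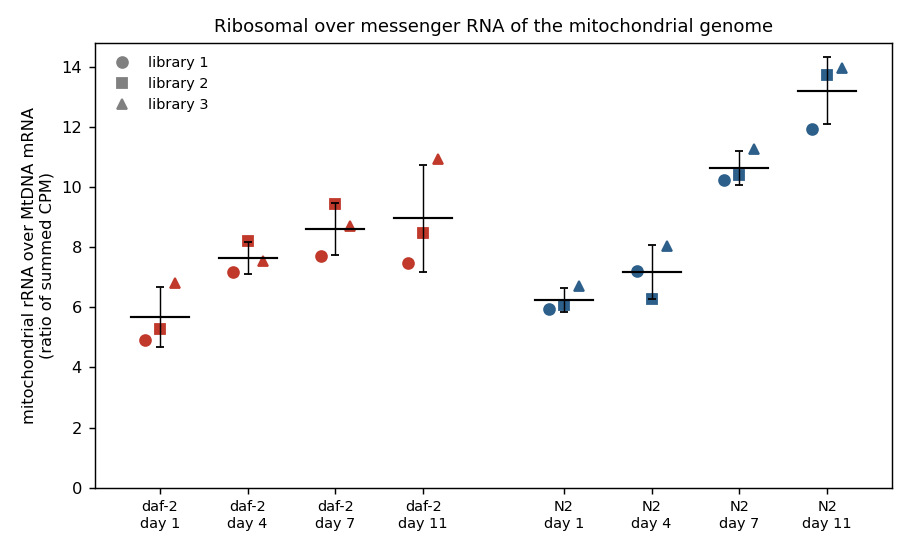
Ratio of summed 12S and 16S rRNA CPM to the summed CPM of the 12 MtDNA mRNAs, by strain and day, with 1 point per library, a line at the group mean and bars of 1 SD. At day 11 the daf-2 libraries lie between 7.48 and 10.9 and the N2 libraries between 11.9 and 13.96.

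Between strains at the same day, 0 of 44 nuclear and 0 of 12 MtDNA genes passed by edgeR at days 1, 4, 7 and 11, where 1.75%, 1.93%, 2.1% and 3.92% of all genes did in either direction. Unadjusted p lay under 0.05 for 0, 1, 2 and 1 nuclear genes and for 1, 0, 0 and 1 MtDNA genes, and DESeq2 called 0 at each day. Fitted values lay below 0, lower in daf-2 worms, for 44, 41, 41 and 38 of the 44 nuclear genes at the 4 days, with medians of -0.18, -0.14, -0.19 and -0.12. With library size alone as scaling these counts were 40, 38, 41 and 31. Averaged over the 4 days 43 of 44 lay below 0 (median -0.15) and 1 gene, nuo-3 (NDUFA6 in human, a complex I subunit), fell by 0.21 ± 0.06 (edgeR adjusted p = 0.0342). That 1 gene of 44 stands beside 4.2% of all genes called lower and 11.1% in either direction, and the call ended when any of 13 libraries was left out (adjusted p between 0.0508 and 0.0788). With the libraries numbered 3 left out, 17 nuclear genes fell in this average, beside 6.64% of all genes called lower. In the same fit 2 MtDNA genes passed, ND1 upwards and ND5 downwards, beside 15.7% in either direction. With the number as a block, 26 of the 38 autosomal and 0 of the 6 X-linked nuclear genes fell in this average. Of the MtDNA genes, ND1 and ND2 then passed upwards and ND5 downwards. The share of all genes called in that blocked fit is not given here. DESeq2 called 5 nuclear genes in this average, and of the 12 MtDNA genes 0 passed by edgeR, 2 had an unadjusted p under 0.05 and DESeq2 called 0.

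Strain differences of the MtDNA genes had medians of opposite sign at day 1 and day 11. At day 1, 10 of 12 were lower in daf-2 worms, with a median of -0.25. ND5 had 606, 586 and 1332 CPM in daf-2 worms at day 1, against 1664, 1018 and 2175 in N2, a difference of -0.94 ± 0.33 (edgeR adjusted p = 0.231, or 0.000712 with the block, where 1.41% of all genes fell). Without daf-2 day 1 library 3, all 12 were lower, with a median of -1.03, and 1 passed, beside 0.465% of all genes. That fit kept N2 day 1 library 3. With all libraries numbered 3 left out, the median was -0.84. With the block, ucr-2.3 also fell at day 1 (edgeR adjusted p = 0.0201).

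At day 11, all 12 were above 0, with a median of 0.54. ND2 had 3.09, 3.57 and 6.43 CPM in daf-2 worms at day 11, against 1.58, 2.47 and 2.38 in N2, which did not overlap, a difference of 1.02 ± 0.38 (edgeR adjusted p = 0.16, or 0.0228 with the block). ND1 had 359, 385 and 530.4 CPM in daf-2 worms, against 262, 243 and 355 in N2, also without overlap, a difference of 0.56 ± 0.27 (edgeR adjusted p = 0.329, or 0.0123 with the block). These were the 2 MtDNA genes that rose with the block, where 4.64% of all genes did. The MtDNA sum was higher in daf-2 worms in each of the 3 same-numbered pairs at day 11, by 0.22, 0.88 and 0.47 on the log2 scale.

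The difference in ageing change between the strains, day 11 minus day 1 in daf-2 worms less the same in N2, was above 0 for all 12 MtDNA genes, with a median of 0.76. None passed by edgeR, and 2 had an unadjusted p under 0.05, where 0.347% of all genes passed and DESeq2 called 0 of the 12. Largest was ATP6 with 2.18 ± 1.16, followed by COX2 with 1.44 ± 0.85 and ND2 with 1.14 ± 0.53, and ND5 had 1.1004 ± 0.46 (edgeR adjusted p = 0.529). Without daf-2 day 1 library 3 the median was 1.53, and again 0 passed. That fit kept library 3 in the other groups. With all libraries numbered 3 left out, the MtDNA median was 1.27. None of the 44 nuclear genes passed (0 at unadjusted p under 0.05, 0 by DESeq2), and their median was 0.07. With the libraries numbered 3 left out, ND5 rose in this difference, by 1.35 ± 0.28 (edgeR adjusted p = 0.0441), where 0.176% of all genes did.

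Other genes of mitochondrial respiration also fell by day 11, when 18% of all genes fell in daf-2 worms and 19.2% in N2. Of 22 further subunits of the chain, 19 fell in daf-2 worms and 18 in N2 at day 11, with medians of -0.78 and -0.87, among them ndub-7 (-1.37 in each) and ndub-3 (-1.23 in daf-2 worms and -1.43 in N2). Of 15 assembly factors, 12 fell in daf-2 worms and 11 in N2, led by coa-7 (-1.38 ± 0.30 and -1.58 ± 0.30). Ubiquinone synthesis had 4 of 8 genes fall in daf-2 worms and 7 of 8 in N2, with coq-5, a methyltransferase of that route, at -1.41 and -1.59. Of 12 import genes, 9 fell in daf-2 worms and 11 in N2, with the outer-membrane receptor gene tomm-22 at -1.26 and -1.37. With the block, 6 ubiquinone genes fell in daf-2 worms and 7 in N2, and 12 import genes fell in each strain. In each strain 14 assembly factors and 21 further subunits then fell, while 1 of each list rose in daf-2 worms. Beside these, 26% of all genes fell in daf-2 worms and 26.4% in N2, and 30.8% rose in daf-2 worms.

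Of 6 genes that maintain and transcribe the mitochondrial genome, 3 fell in daf-2 worms and 2 in N2 at day 11, with medians of -0.45 and -0.51. They included mtss-1, the mitochondrial single-stranded DNA-binding protein gene (-1.26 and -1.299), and rpom-1, the mitochondrial RNA polymerase gene (-0.68 in daf-2 worms and -1.19 in N2). Among 10 genes of the mitochondrial stress response, 4 fell in daf-2 worms and 6 in N2, with the chaperonin gene hsp-60 at -1.31 ± 0.28 and -1.82 ± 0.29. With the number as a block 7 of these 10 fell in each strain, and 4 of the 6 maintenance genes did, beside 26% of all genes in daf-2 worms and 26.4% in N2. Of 7 carriers and pores, 3 low-level ADP/ATP carrier genes (ant-1.2, ant-1.3 and ant-1.4) rose in daf-2 worms, beside 22.2% of all genes. The main carrier gene ant-1.1 changed by -0.48 ± 0.20 in daf-2 worms and fell in N2 by 0.65 ± 0.21 (edgeR adjusted p = 0.0681 and 0.0148, the first 0.00047 with the block). With the block 2 carriers and pores fell in daf-2 worms and 3 in N2.

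Markers of several tissues moved with these ages, and their counts stand beside 18% of all genes that fell and 22.2% that rose in daf-2 worms, and 19.2% and 22.5% in N2. Of 18 germline markers, 6 fell in daf-2 worms and 10 in N2 at day 11, and 0 rose, and with the block 11 fell in daf-2 worms and 13 in N2. Their sum was 2223 to 3050.5 CPM in daf-2 worms at day 11, against 2377 to 4803 at day 1, and 2319 to 2945 CPM in N2, against 2978 to 5602. Of 12 body wall muscle markers, 11 fell in each strain, with a sum of 588 to 1007 CPM in daf-2 worms at day 11, against 2098 to 5560.5 at day 1, and 717 to 1194 CPM in N2, against 2647 to 4036.5. Of 10 intestine markers, 7 fell in daf-2 worms and 6 in N2 with 1 that rose. Their sum at day 11 was 426 to 601 CPM in daf-2 worms, against 1906 to 2108 in N2. The most abundant, asp-1 (mean 1183 CPM over all libraries), differed in daf-2 worms versus N2 at day 11 by -2.6417 (edgeR adjusted p = 2.2279e-05). In that comparison ges-1 was higher in daf-2 worms, by 1.1268 (edgeR adjusted p = 0.018223), and elt-2 also lay above 0. The other intestine markers lay below 0, and of these pept-1, ifb-2 and cpr-1 also passed. Of 6 hypodermis markers, 3 fell in each strain, and of 5 pharyngeal muscle markers 0 passed in either by edgeR, at an unadjusted p under 0.05 or by DESeq2, while 1 fell in each with the block. Oocyte markers (14) had 1 fall and 1 rise in daf-2 worms and 2 rises in N2, and neuron markers (12) had 2 rises and 1 fall in daf-2 worms and 3 rises and 1 fall in N2. Sperm markers (21) had 3 rises in daf-2 worms, and 4 falls and 1 rise in N2, and without the libraries numbered 3 they had 20 rises in daf-2 worms, and 1 fall and 1 rise in N2. Without those libraries oocyte markers had 6 falls and 2 rises in daf-2 worms, and 5 falls and 2 rises in N2. Germline markers then had 14 falls in daf-2 worms and 15 in N2. In that last fit 25.8% of all genes fell in daf-2 worms and 26.4% in N2, and the share of all genes that rose is not given here. With the block, where 30.8% of all genes rose in daf-2 worms and 30.4% in N2, oocyte markers had 2 rises in daf-2 worms and 3 in N2, and sperm markers 6 falls in N2. No listed marker was at 0 apart from 1 sperm gene in N2 at day 4, and the part of tissue make-up in the chain's changes was not tested.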

How the data were processed

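Whole-worm total RNA was made into stranded libraries after ribosomal RNA depletion, per the labels' protocols. The authors deposited RSEM expected counts per gene for each library, and the submitters' processing notes name RSEM 1.3.1, STAR 2.7.0e and, as builds, ce11 and WBcel235. The annotation used is not given in the sources used here. Positions and gene names come from Ensembl's WBcel235 annotation, which held 46817 of the 46904 identifiers, and MtDNA genes were named from the RefSeq gene that starts nearest.

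Expected counts, of which 929 to 1198 per library were not whole, were rounded and fitted with edgeR 4.0.16 in R 4.3.3: TMM scaling, a low-count filter over the 8 groups, 1 mean per group and quasi-likelihood tests with Benjamini-Hochberg adjustment over 16698 genes. The SE is the absolute log2 fold change over the square root of F. The biological coefficient of variation was 0.273. DESeq2 1.42.0 was an alternative, as were other scalings, no filter, only the groups compared, the library number as a block, and libraries left out. The procedure was tested on simulated data.

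Same-numbered libraries were taken as paired where every pair's deviations from the group means correlated above 0.1, which held in each daf-2 age comparison, in N2 at day 11 and between strains at each day. The labels give only the number.

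Members and lists were chosen with earlier results of these data known. Named by rule were all MtDNA genes, the largest fall and rise per complex among genes that passed at 10 CPM or more, the gene copies and the lifespan genes. Other members were named after their values were seen. From each pathway list up to 2 genes with the largest change are named. No sequences are shown because no genome sequence was used here. Values of 2 single genes are not reported here.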

Additional observations from a re-analysis of the deposited data

How the results depend on the processing

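Counts of genes called are given with those of the reported fit. Shares of all genes are not given for the DESeq2, rescaled and unfiltered fits, nor for most fits without 1 library. With the replicate block, the N2 counts were 36 nuclear and 8 MtDNA genes at day 4 (reported 7 and 1) and 38 and 10 at day 7 (24 and 6). The blocked shares of all genes there are not given. The block raised calls among all genes too. In N2 at day 11 the share that fell went from 19.2% to 26.4%. In daf-2 worms at day 4 it went from 5.01% to 11.9%. Deviations of same-numbered libraries correlated in N2 by 0.085 to 0.433 at day 4 and 0.095 to 0.499 at day 7. The lowest value of each narrowly missed the 0.1 set for pairing. In daf-2 worms the block gave 34 and 4 at day 4 (8 and 0), 38 and 6 at day 7 (22 and 0) and 6 MtDNA genes at day 11 (1). Between strains the block gave 1 nuclear and 1 MtDNA gene at day 1, 2 MtDNA genes at day 11, 26 nuclear and 3 MtDNA genes averaged over days (1 and 0), and 1 MtDNA gene, ND5, for strain by age. Across other groups, all 24 libraries correlated more highly on average with libraries of their own number than with those of either other number. At day 11 the block gave 36 nuclear and 11 MtDNA genes in N2 and 34 nuclear genes in daf-2 worms, within 1.5 times the reported counts.

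With libraries numbered 3 left out, the counts in N2 were 33 nuclear and 8 MtDNA at day 4 and 10 MtDNA at day 7. In daf-2 worms they were 27 nuclear and 1 MtDNA at day 4, 1 MtDNA at day 7 and 2 at day 11. Between strains they were 1 and 1 at day 1, 1 MtDNA at day 11, 17 nuclear and 2 MtDNA averaged, and 1 MtDNA for strain by age. DESeq2 called 12 nuclear and 2 MtDNA genes in N2 at day 4, 2, 3 and 3 MtDNA genes in daf-2 worms at days 4, 7 and 11, and 5 nuclear genes averaged. Fitting only the groups compared gave 2 nuclear and 0 MtDNA genes in N2 at day 4, 6 nuclear in N2 at day 7, 1, 9 and 15 nuclear in daf-2 worms at days 4, 7 and 11, and 0 MtDNA at day 11. Library size alone gave 0 MtDNA genes in N2 at day 4, 3 at day 7 and 0 in daf-2 worms at day 11. No filter gave 0 MtDNA genes in N2 at day 4 and 0 nuclear genes averaged. Scaling without MtDNA and ribosomal RNA genes gave 11 nuclear and 0 MtDNA in N2 at day 4 and 3 nuclear averaged, and RLE scaling gave 1 MtDNA gene in daf-2 worms at day 4 and 3 nuclear averaged. The cause of these shifts was not tested.

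Leaving out 1 library at a time gave in N2 6 to 12 nuclear and 0 to 2 MtDNA genes at day 4, 11 to 24 and 3 to 7 at day 7, and 20 to 31 and 6 to 10 at day 11. In daf-2 worms it gave 5 to 6 and 0 to 1 at day 4, 11 to 26 and 0 to 4 at day 7, and 15 to 28 and 0 to 4 at day 11. Without daf-2 day 1 library 3, but with library 3 kept at day 11, the MtDNA direction at day 11 reversed, to 1 gene that rose. Between strains it gave 0 to 1 MtDNA genes at day 1, and 0 to 4 nuclear and 0 to 1 MtDNA averaged. The change of the log2 ratio ran from -1.47 to -0.79 in N2 and from -0.52 to 0.57 in daf-2 worms, the averaged strain difference from -0.02 to 0.25, and strain by age from 0.59 to 1.67. Depth limits ND4L, with 1 to 16 counts a library.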
